A study of Homo sapiens with 24 samples.

Results

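The repeats described here are loci that bear the names of centromeric and pericentromeric satellite families, in human hepatocellular carcinoma lines. They were chosen by name from a deposited table of repeat loci, as every locus named ALR/Alpha, BSR/Beta, HSATII, HSAT4, HSAT5, HSATI, ACRO1 or SST1 and every name that opens with GSAT or SATR. The choice gave 5880 of 5298130 repeat loci, in 13 of 990 subfamilies once simple, low-complexity and RNA repeats were set aside. BSR/Beta had 1984 loci, ALR/Alpha 1301, SST1 612, SATR1 544, HSATII 399, SATR2 262, HSAT5 260, GSATII 190, HSAT4 99, GSAT 67, ACRO1 61, GSATX 56 and HSATI 45. The choice went by name and not by position, so it includes loci on chromosome arms, such as a SATR1 locus inside SSUH2 at chr3:8711935-8714694. Only 1519 of the loci had a value above 0 in any library, and 1228 of the 5880 overlapped a gene body. The share of reads from outside gene bodies ran from 15.4% in HSAT4 to 96.7% in HSATII, with 19.3% in SATR2, 28% in BSR/Beta, 37.1% in SST1 and 56.5% in SATR1. Coordinates are hg19 throughout, except where GRCh38.p14 is named.

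Satellites are tandem arrays of short units. Alpha satellite forms the centromere on which the CENP-A nucleosome and the kinetochore are built, while the HSAT, beta and gamma families and ACRO1 and SST1 are known from flanking heterochromatin and the short arms of acrocentric chromosomes. In somatic cells these arrays carry DNA methylation and H3K9 methylation and give little RNA, and HSATII RNA is known from tumours and from cells that have lost DNA methylation.

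The 4 treatments were compared within each of 3 lines, HepG2, SNU398 and SNU475, all from ATCC and labelled wildtype. The combination was decitabine (5-Aza-CdR), a cytidine analog that traps DNA methyltransferases, with GSK-126, an inhibitor of the H3K27 methyltransferase EZH2. Single-drug cells got decitabine at 100 nM or GSK-126 at 500 nM, in daily doses over 3 days, and DPBS, the saline buffer, was the control. The combination held both drugs at these same concentrations. HepG2 and SNU398 were harvested on day 14 and SNU475 on day 21, so a difference of SNU475 from the other lines and its later harvest cannot be told apart. Each of the 12 groups had 2 libraries, A and B, of ribosome-depleted total RNA. No label ties A or B to its own culture, so p-values measure the spread between libraries, which may be technical.

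The libraries held 32.6 to 60.37 reads in units of 1e+06, so 1 read was worth 0.0166 to 0.0307 RPM, the reads per 1e+06 reads of a library. Hepatocyte markers were high in HepG2, where ALB ranged from 2050 to 5540 scaled RPKM, and near absent from the SNU lines, where HNF4A stayed at or below 0.432. ALB nevertheless reached 22.1 in SNU398 decitabine library A against 0.369 in library B, and 24.1 in SNU475 DPBS library A against 1.09 in library B. Residual ribosomal RNA repeats gave 1160 RPM in SNU475 DPBS library A and 8440 RPM in library B. Without either SNU475 DPBS library, the satellite subfamily calls of that line against DPBS kept their direction and stayed past the threshold, except those of GSATII with decitabine and SATR1 with GSK-126. The calls of ALR/Alpha, GSATII and SST1 with decitabine in SNU398 were lost without decitabine library A, at changes no smaller or little smaller than with it (0.31, 0.36 and 0.28, against 0.32, 0.30 and 0.24). Bulk RNA cannot tell fewer cells of a kind from less RNA per cell.

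Values are RPM summed over the loci of a subfamily, which are shares of reads and not levels per length. Changes are differences of log2(RPM + 0.5), a scale that understates the change of low features. They come from limma fitted to all 843 subfamilies with at least 1 RPM in 2 libraries, with Benjamini-Hochberg adjustment over the 843 and a threshold of 0.05. GSAT, at 0 to 0.352 RPM, and HSAT4, at 0.0173 to 0.69 RPM, missed that filter and were not tested. Of the 11 that passed, HSATII, HSATI, GSATX and HSAT5 did so only through SNU398, so a high value there was a condition of being tested. HSATII reached the minimum only in the combination and decitabine groups of SNU398, and HSAT5 only in its combination and GSK-126 groups, so their changes in those groups are given as a description, without a p. Copies of a satellite are near-identical and no source used here says how reads matching several copies were counted, so the split of reads among loci of 1 subfamily is uncertain.

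No hg19 genome was at hand, so no sequence of a locus is shown. The sequence that bears on the largest source of alpha satellite reads, the lincRNA gene LINC00662 described below, is its promoter. RefSeq gives it on GRCh38.p14 at chr19:27793891-27794190, minus strand, over 300 bases, here with CG dinucleotides in capitals.
LINC00662: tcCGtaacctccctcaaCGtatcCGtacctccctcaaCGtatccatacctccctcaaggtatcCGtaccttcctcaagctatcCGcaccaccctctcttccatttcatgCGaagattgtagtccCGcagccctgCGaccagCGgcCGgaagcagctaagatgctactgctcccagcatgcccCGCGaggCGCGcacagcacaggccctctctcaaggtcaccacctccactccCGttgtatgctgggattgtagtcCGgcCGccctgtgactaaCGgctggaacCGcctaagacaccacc
It holds 20 CG dinucleotides, and 41.2% of the 35116 RefSeq promoters of the same length hold at least as many, with a median of 14.

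Summed over the 13 subfamilies, satellite RNA was above DPBS in every treated group of HepG2 and SNU398 and below DPBS in every treated group of SNU475. In HepG2 the sum was 34.9 and 33.3 RPM with the combination, 41.7 and 42.6 RPM with decitabine, 33.8 and 35.1 RPM with GSK-126, and 22.1 and 22.5 RPM with DPBS. In SNU398 it was 150 and 148 RPM with the combination, 128 and 128 RPM with decitabine, 127 and 120 RPM with GSK-126, and 109 and 108 RPM with DPBS. In SNU475 it was 30.5 and 30.9 RPM with the combination, 33.3 and 34.3 RPM with decitabine, 41.5 and 41.2 RPM with GSK-126, and 54.4 and 55.3 RPM with DPBS. No treated library overlapped the DPBS libraries of its line. Against DPBS, the mean was 1.53, 1.89 and 1.54 times as high for the combination, decitabine and GSK-126 in HepG2, 1.37, 1.17 and 1.14 times in SNU398, and 0.56, 0.617 and 0.755 times in SNU475.

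**Figure D1:**
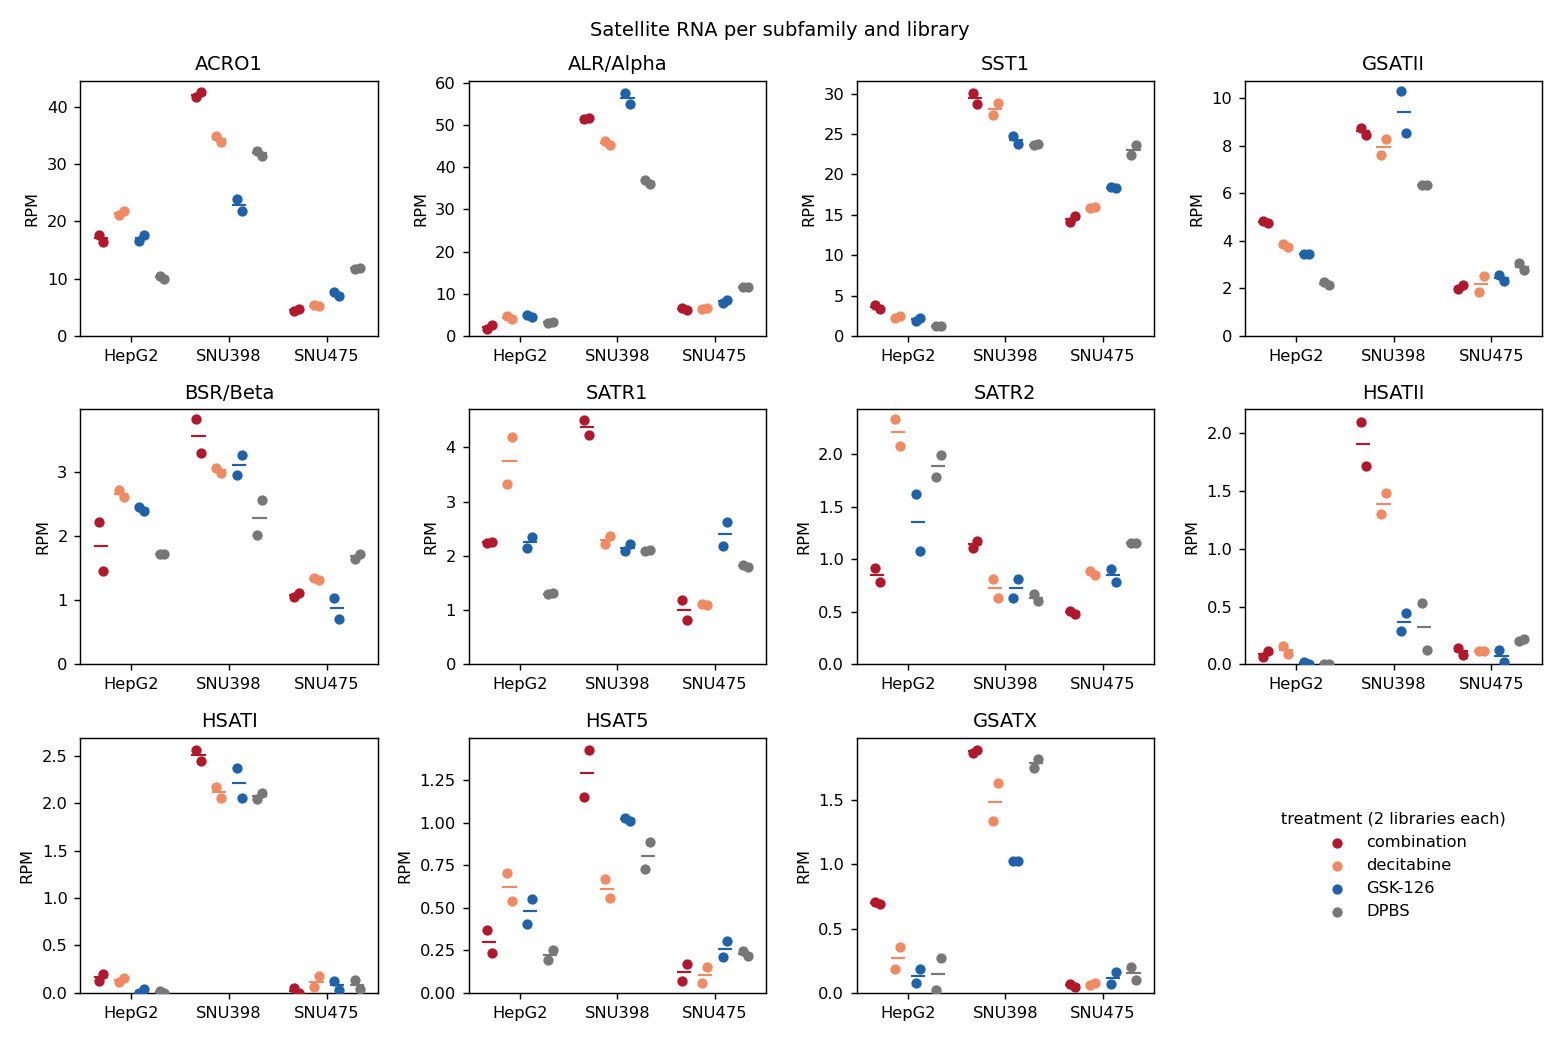
RPM (y axis, linear, from 0) of the 11 tested satellite subfamilies in each library, by line and treatment; points are the 2 libraries of a group and the short line their mean. SNU398 holds the highest levels of HSATII, HSATI and GSATX, and SST1 stands at 22.4 and 23.6 RPM in SNU475 with DPBS, above all its treated libraries.

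The direction of the satellite changes differed between the lines, as did that of all repeats. In HepG2, decitabine raised 8 of the 11 tested subfamilies and lowered 0, where 85.1% of all 843 were called higher and 3.8% lower. GSK-126 in HepG2 raised 7 and lowered 1, against 72.6% and 6.29% of all. The combination in HepG2 raised 6 and lowered 2, against 36.5% and 35.1%. No member count of HepG2 is read as apart from these backgrounds.

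In SNU398 the combination raised 9 of 11 and lowered 0, with a background of 49.2% higher and 3.44% lower. Without HSATII and HSAT5 it raised 7 of 9. Decitabine raised 4 and lowered 0 (11% and 3.8% of all), or 3 without HSATII, and GSK-126 raised 3 and lowered 2 (12.9% and 22.9%). The decitabine count fell to as few as 1 when single libraries were left out. Scaling by genes moved the median of all subfamilies under GSK-126 to 0.12, against -0.03 in the unscaled values, and the share of called subfamilies that were higher to 79%, against 36.1%.

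In SNU475 the combination raised 0 and lowered 7, with 5.46% of all subfamilies called higher and 72.2% lower. Decitabine raised 0 and lowered 5 (4.74% and 68.9%), and GSK-126 raised 1 and lowered 4 (4.51% and 52.4%). No member count of SNU475 is read as apart from these backgrounds either. The median change of the 11 with the combination was 0.38 in HepG2 and -0.47 in SNU475, beside 0.05 and -0.39 over all 843.

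**Figure D2:**
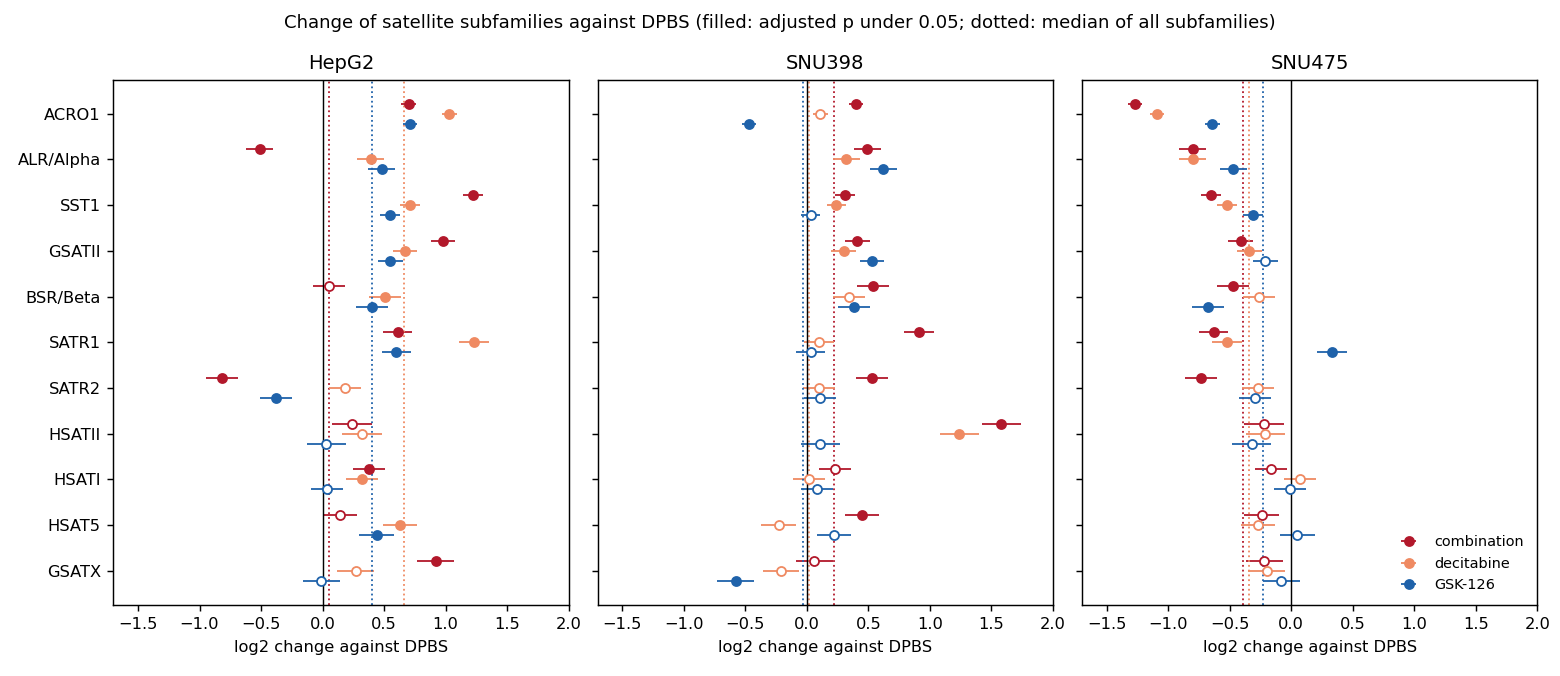
Log2 change against DPBS (x axis, log2(RPM + 0.5) scale) of each subfamily (rows) under the combination, decitabine and GSK-126, with the standard error as a bar, filled where adjusted p was under 0.05; dotted lines mark the median of all 843 subfamilies. HSATII in SNU398 lies at 1.58 for the combination and 1.24 for decitabine, both groups through which it passed the filter, and most points in SNU475 lie left of 0.

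The combination was next set against each single drug. In HepG2 it gave 3 higher and 6 lower subfamilies against decitabine (4.39% and 81.3% of all 843) and 4 higher and 3 lower against GSK-126 (11.6% and 61.8%). SST1, GSATII and GSATX were the 3 above decitabine, by 0.52, 0.30 and 0.65. The interaction, which is the combination minus both single effects, was positive in 1 and negative in 6 (2.85% and 85.8%). In SNU398 the combination gave 4 higher and 0 lower against decitabine (38.1% and 0.83%) and 6 higher and 0 lower against GSK-126 (56.9% and 3.08%), with 3 positive and 2 negative interactions (37.1% and 4.15%). Without HSATII and HSAT5 the higher counts were 3 against decitabine and 5 against GSK-126. ACRO1, GSATX and SATR1 were the 3 with more than the sum of the single effects on the log2 scale. Scaling by genes moved the median of all subfamilies in SNU398 to 0.11, against 0.24 unscaled, for the combination minus GSK-126 and to 0.06, against 0.20, for the interaction. The share of called subfamilies that were higher moved to 83.1%, against 94.9%, and to 71.3%, against 89.9%. In SNU475 it gave 0 higher and 1 lower against decitabine (1.19% and 3.2%), which was SATR2, and 0 higher and 5 lower against GSK-126 (7.47% and 41.8%), with 3 positive and 1 negative interactions (26.5% and 3.8%).

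The lines also differed before treatment. Among DPBS libraries SNU398 was above HepG2 in 10 subfamilies and below it in 1, SATR2 (59.2% and 19.9% of all). SNU475 was above HepG2 in 6 and below it in 1 (64.1% and 16%), and above SNU398 in 1 and below it in 7 (40.3% and 27.5%). Leaving out the 4 that passed the filter only through SNU398, 7 subfamilies remained. Of these, SNU398 was above HepG2 in 6 and below it in 1. SNU475 was above HepG2 in 5 and below it in 1, and above SNU398 in 1 and below it in 4. Scaling by genes moved the median of all subfamilies between SNU398 and HepG2 to -0.02, against 0.30 unscaled, between SNU475 and HepG2 to 0.20, against 0.37, and between SNU475 and SNU398 to 0.21, against 0.09. The higher share of called subfamilies moved to 47.5%, against 74.8%, to 69.1%, against 80%, and to 73.8%, against 59.4%, in the same order. The decitabine effect was larger in SNU398 than in HepG2 for 1 subfamily and smaller for 6 (3.56% and 76.7%), and smaller in SNU475 than in HepG2 for 10 and larger for 0 (88.6% and 2.49%) and than in SNU398 for 7 and 0 (60.6% and 2.73%). The combination effect was larger in SNU398 than in HepG2 for 4 and smaller for 4 (42.3% and 19.2%), and smaller in SNU475 than in HepG2 for 7 and larger for 0 (59% and 9.85%) and than in SNU398 for 9 and 0 (77.1% and 3.2%). Without HSATII and HSAT5, tested only because treated SNU398 groups were high, 9 subfamilies remained. The decitabine effect was then larger in SNU398 than in HepG2 for 0 and smaller for 5. In SNU475 it was smaller than in HepG2 for 8 and than in SNU398 for 6. The combination effect was larger in SNU398 than in HepG2 for 3 and smaller for 4. In SNU475 it was smaller than in HepG2 for 7 and than in SNU398 for 7.

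HSATII is the pericentromeric satellite whose RNA is known from tumours. In SNU398 it stood at 2.1 and 1.72 RPM with the combination, 1.3 and 1.48 RPM with decitabine, 0.293 and 0.445 RPM with GSK-126, and 0.53 and 0.124 RPM with DPBS. The libraries with decitabine, alone or combined, were above all 4 libraries without it. Against DPBS, the limma log2 change was 1.58 ± 0.16 (SE) for the combination, 1.24 ± 0.16 for decitabine and 0.11 ± 0.16 for GSK-126. As HSATII was tested only because the first 2 of these groups were high, no p is given. The combination exceeded GSK-126 by 1.47 and decitabine by 0.34, also given as a description without a p. The 0.34 is not read as a difference.

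The size of the HSATII change rested on the unequal DPBS pair. With 1 SNU398 library left out at a time the combination gave 1.22 to 1.94 and decitabine 0.88 to 1.60. Without decitabine library A, the one with ALB reads, the decitabine change was 1.31. HSATII gave 0 RPM in both HepG2 DPBS libraries, against 0.0615 and 0.117 RPM with the combination, 0.159 and 0.0887 RPM with decitabine and 0.0198 and 0 RPM with GSK-126, a few reads each. In SNU475 it ranged from 0.0178 to 0.217 RPM with no call in any treatment.

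HSATII reads came from few arrays and nearly all of them, 96.7%, from outside gene bodies. Loci closer than 50 kb were joined into arrays for this count. The array at chr10:42355282-42397290, of 19 loci and with no gene, held 52.8% of all HSATII reads. It gave 1.09 and 0.712 RPM with the combination in SNU398, 0.633 and 0.982 RPM with decitabine, 0.196 and 0.231 RPM with GSK-126, and 0.365 and 0.0891 RPM with DPBS. Both groups with decitabine lay above the others. An array of 91 loci at chr16:46385804-46500494, also without a gene, gave 0.507 and 0.512 RPM with the combination, 0.234 and 0.312 RPM with decitabine, 0.0387 and 0.0543 RPM with GSK-126, and 0.0327 and 0.0176 RPM with DPBS. There the combination libraries were also above those of decitabine alone.

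**Figure D3:**
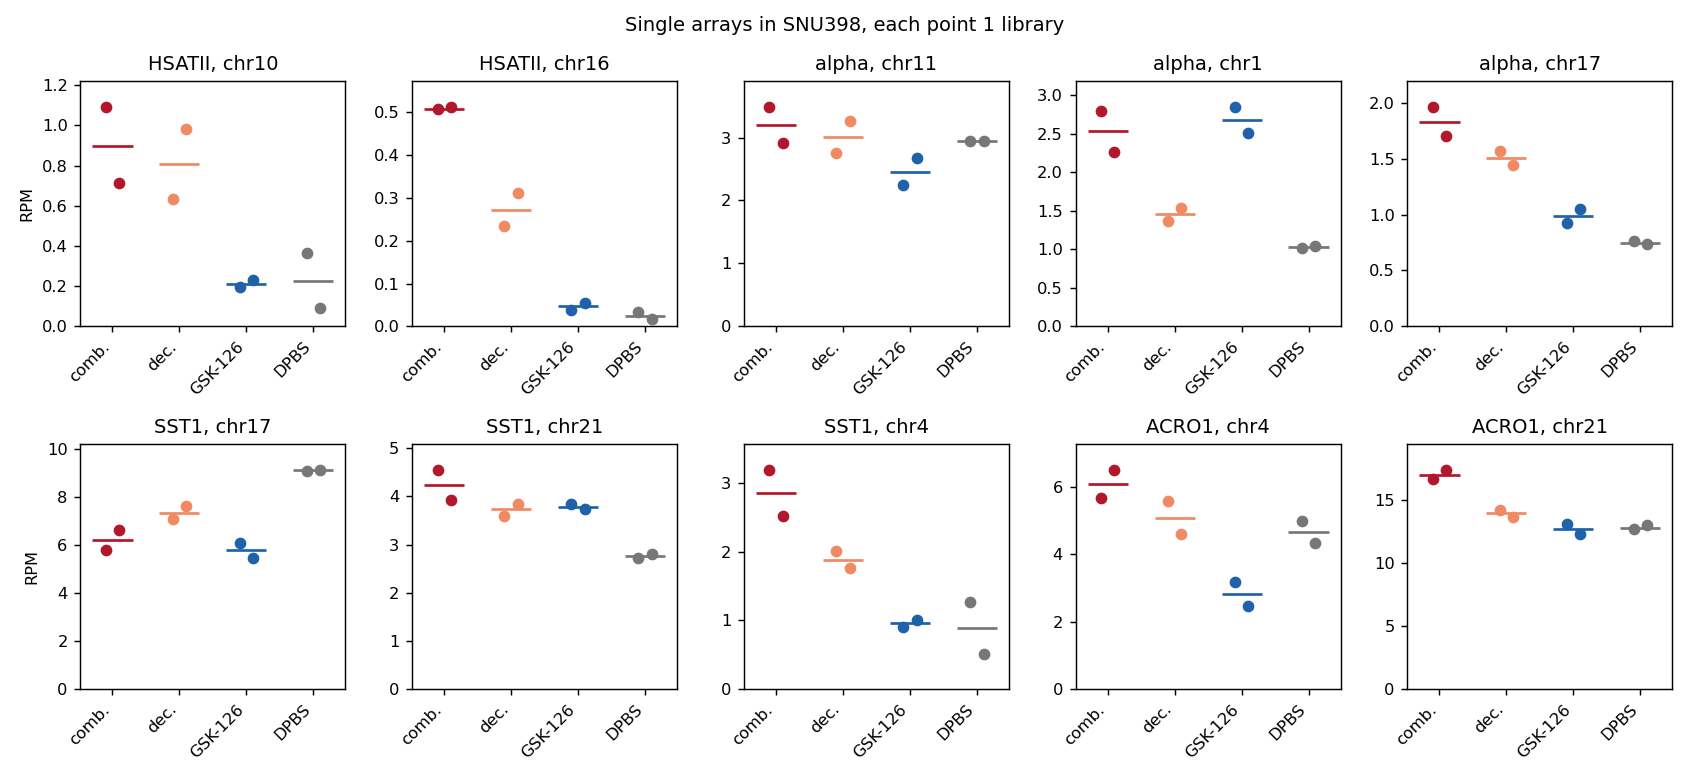
RPM (y axis, linear, from 0) of single arrays in SNU398; each point is 1 library, the line the mean, and the columns run from the combination through decitabine and GSK-126 to DPBS. The HSATII arrays are high in both groups with decitabine, alpha on chromosome 1 in both groups with GSK-126, and SST1 on chromosome 17 is highest with DPBS.

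ALR/Alpha, the centromeric satellite, had its most reads in SNU398. There it gave 51.4 and 51.7 RPM with the combination, 46.3 and 45.3 RPM with decitabine, 57.6 and 55 RPM with GSK-126, and 36.9 and 36.1 RPM with DPBS. All treated libraries were above DPBS and GSK-126 alone was highest. The limma log2 changes were 0.49 ± 0.11 (combination, adjusted p = 0.000683), 0.32 ± 0.11 (decitabine, adjusted p = 0.0479) and 0.62 ± 0.11 (GSK-126, adjusted p = 0.000122). The decitabine call was lost when any 1 of the 8 SNU398 libraries was left out, at changes of 0.31 to 0.34.

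In HepG2 alpha satellite stood at 1.64 and 2.63 RPM with the combination, 4.69 and 4.01 RPM with decitabine, 4.89 and 4.42 RPM with GSK-126, and 3.01 and 3.38 RPM with DPBS. It rose with each single drug, by 0.39 (decitabine, limma adjusted p = 0.00202) and 0.48 (GSK-126, adjusted p = 0.000412), and fell by 0.51 with the combination (adjusted p = 0.000223), with an interaction of -1.38 ± 0.15 (adjusted p = 1.7e-08). SNU475 gave 6.72 and 6.23 RPM with the combination, 6.39 and 6.57 RPM with decitabine, 7.9 and 8.6 RPM with GSK-126, and 11.6 and 11.6 RPM with DPBS. Each treatment there lowered it, by 0.80, 0.80 and 0.47 on the log2 scale (largest adjusted p = 0.000829).

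Much of this RNA lay within 1 gene. The 10 alpha loci inside LINC00662 (chr19:28175488-28284848), a long intergenic RNA gene beside the centromere of chromosome 19, held 37.4% of alpha reads in the SNU398 combination group, 43.9% with decitabine, 65.3% with GSK-126 and 64.4% with DPBS. Inside the gene SNU398 gave 18.2 and 20.3 RPM with the combination, 20.6 and 19.6 RPM with decitabine, 37.7 and 35.7 RPM with GSK-126, and 23.9 and 23.2 RPM with DPBS. At the 1291 other alpha loci it gave 33.2 and 31.4 RPM with the combination, 25.7 and 25.8 RPM with decitabine, 19.8 and 19.3 RPM with GSK-126, and 13.1 and 12.9 RPM with DPBS. The order of the treatments thus differed by place: GSK-126 alone was highest inside the gene, at 1.56 times DPBS, and the combination elsewhere, at 2.48 times, beside 1.98 times for decitabine and 1.5 times for GSK-126.

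In HepG2 the order of the treatments differed by place too, but at the other loci decitabine was highest and not the combination. Inside LINC00662 alpha satellite gave 0.859 and 1.54 RPM with the combination, 2.53 and 2.11 RPM with decitabine, 3.99 and 3.42 RPM with GSK-126, and 2.51 and 2.72 RPM with DPBS. Elsewhere it gave 0.783 and 1.09 RPM with the combination, 2.16 and 1.9 RPM with decitabine, 0.893 and 0.995 RPM with GSK-126, and 0.493 and 0.662 RPM with DPBS. The fall with the combination lay inside the gene (0.458 times DPBS), while the other loci were at 1.62 times. At those other loci decitabine stood at 3.51 times DPBS and GSK-126 at 1.63 times. In SNU475 both places were lower with every treatment, at 0.584, 0.59 and 0.712 times DPBS inside the gene and 0.522, 0.514 and 0.706 times elsewhere for the combination, decitabine and GSK-126. The deposited values had 3 decimals, and in 20 alpha loci longer than 33.1 kb a single read rounds to 0, which could hide up to 0.527 RPM. That limit lies between the 0.493 and 0.662 RPM of HepG2 DPBS outside LINC00662, so the HepG2 folds at the other loci are uncertain.

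**Figure D4:**
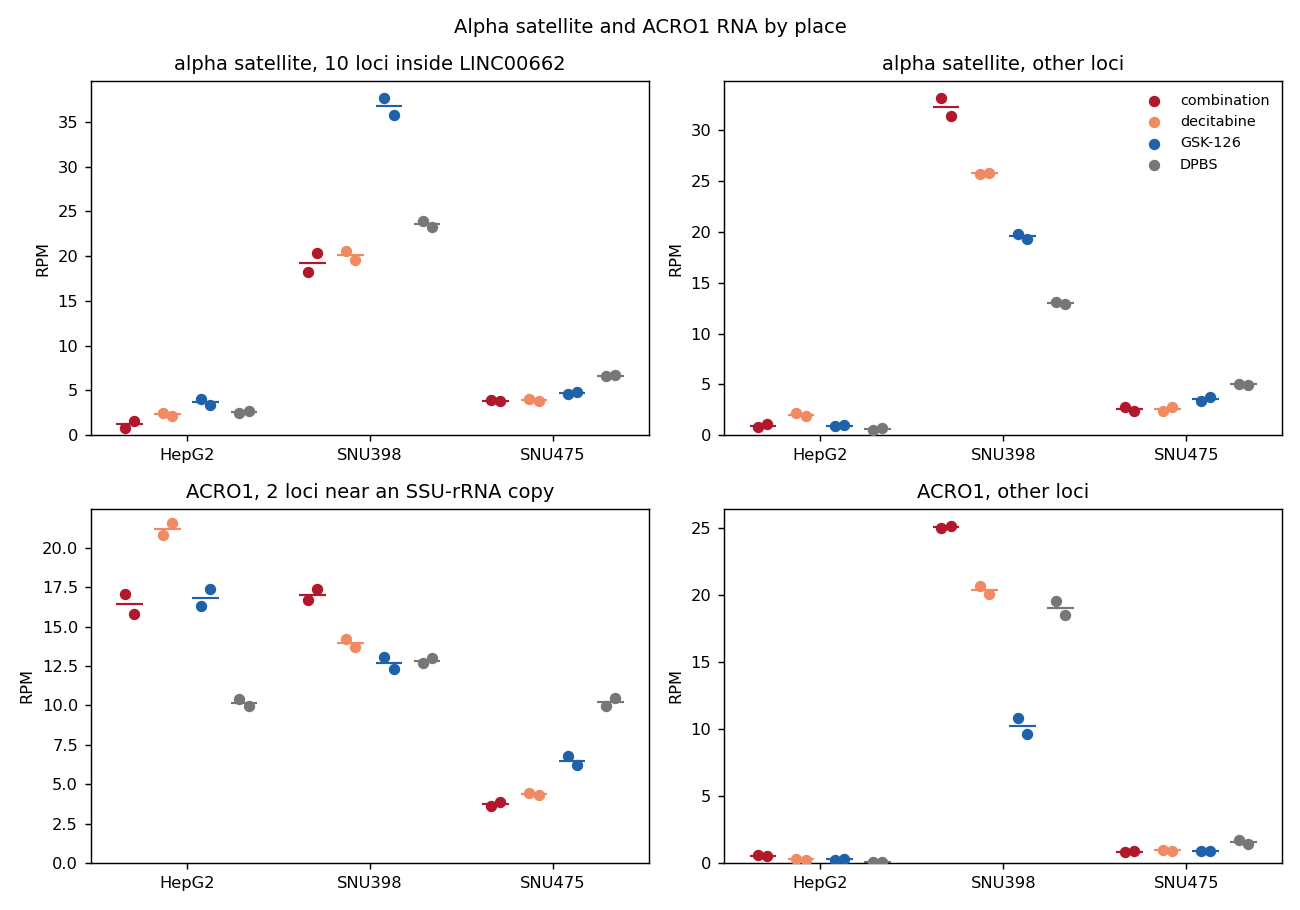
RPM (y axis, linear, from 0) of alpha satellite inside LINC00662 and at its other loci (top), and of ACRO1 at 2 chromosome 21 loci and at its other loci (bottom), by line and treatment; points are libraries and short lines means. In SNU398, GSK-126 gave the most alpha RNA inside LINC00662 (37.7 and 35.7 RPM) and the combination the most elsewhere (33.2 and 31.4 RPM).

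A limma fit of every subfamily on loci outside gene bodies, which leaves out 76 alpha loci and so is another subset than this split, gave the following. Alpha satellite rose in SNU398 by 1.49 ± 0.10 with the combination (adjusted p = 2.91e-18), 1.13 with decitabine (adjusted p = 2.66e-13) and 0.72 with GSK-126 (adjusted p = 2.33e-07). In HepG2 it rose by 0.42 with the combination (adjusted p = 0.000339), opposite in sign to the fit on all loci, by 1.19 with decitabine (adjusted p = 6.57e-16) and by 0.41 with GSK-126 (adjusted p = 0.000552). In SNU475 it fell by 0.78 with the combination (adjusted p = 2.22e-09) and by 0.82 with decitabine (adjusted p = 8.07e-10), and the change with GSK-126, -0.18, did not pass (adjusted p = 0.129).

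LINC00662 itself, measured in the gene table on the scaled RPKM scale, gave 2.79 and 2.93 in SNU398 with the combination, 2.75 and 2.6 with decitabine, 5.91 and 5.96 with GSK-126, and 3.14 and 3 with DPBS. Both GSK-126 libraries stood above the rest, and limma gave a log2 change of 0.85 (adjusted p = 3.51e-09) for GSK-126 and -0.09 (adjusted p = 0.207) for the combination. In HepG2 it changed by 0.51 with GSK-126 (adjusted p = 9.96e-07) and by -0.01 with the combination (adjusted p = 0.855). The part of this gene's transcript in the alpha values was not tested beyond the split by place.

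Single alpha loci in SNU398 fell into different patterns. The locus at chr10:42397751-42410758 begins 461 bp after the chromosome 10 HSATII array and gave 1.39 and 1.18 RPM with the combination, 1.11 and 0.911 RPM with decitabine, 0.156 and 0.104 RPM with GSK-126, and 0.13 and 0.234 RPM with DPBS. It was high where its HSATII neighbour was high, with limma log2 changes, on the log2(RPM + 0.2) scale used for loci, of 1.97 (combination, adjusted p = 1.13e-07), 1.67 (decitabine, adjusted p = 2.98e-06) and -0.20 (GSK-126, adjusted p = 0.741). The locus at chr1:121480151-121485429 gave 2.66 and 2.17 RPM with the combination, 1.28 and 1.45 RPM with decitabine, 2.84 and 2.45 RPM with GSK-126, and 0.961 and 0.971 RPM with DPBS. Here the groups with GSK-126 were highest, with changes of 1.16 (combination, adjusted p = 5.5e-05), 0.42 (decitabine, adjusted p = 0.295) and 1.28 (GSK-126, adjusted p = 1.13e-05).

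Another pattern was found at chr19:27731785-27741731, which gave 1.73 and 1.65 RPM with the combination, 0.726 and 0.776 RPM with decitabine, 0.786 and 1.17 RPM with GSK-126, and 0.179 and 0.229 RPM with DPBS. Each drug raised it and the combination gave the highest values, with a log2 change of 2.23 (adjusted p = 1.62e-07). The array of 48 loci at chr11:50319074-50783853, the next in reads after LINC00662, differed little between treatments, at 3.48 and 2.92 RPM with the combination, 2.75 and 3.27 RPM with decitabine, 2.25 and 2.68 RPM with GSK-126, and 2.95 and 2.94 RPM with DPBS.

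ACRO1, named for the acrocentric short arms, had its most reads in SNU398. It gave 41.7 and 42.6 RPM there with the combination, 34.9 and 33.9 RPM with decitabine, 23.9 and 21.9 RPM with GSK-126, and 32.3 and 31.5 RPM with DPBS. The combination was above and GSK-126 below the DPBS libraries. The limma log2 changes were 0.40 ± 0.06 (combination, adjusted p = 4.26e-06), 0.11 ± 0.06 (decitabine, adjusted p = 0.287) and -0.47 ± 0.06 (GSK-126, adjusted p = 6.37e-07), with an interaction of 0.76 (adjusted p = 7.34e-08).

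HepG2 gave 17.7 and 16.4 RPM of ACRO1 with the combination, 21.1 and 21.9 RPM with decitabine, 16.6 and 17.7 RPM with GSK-126, and 10.5 and 10 RPM with DPBS. Every treatment raised it there, decitabine most, by 1.03 (limma adjusted p = 2.04e-16). SNU475 gave 4.43 and 4.75 RPM with the combination, 5.38 and 5.21 RPM with decitabine, 7.74 and 7.05 RPM with GSK-126, and 11.7 and 11.9 RPM with DPBS, and every treatment lowered it, the combination by 1.27 (adjusted p = 1.55e-17). Without SNU475 DPBS library A that change was -1.29, and without library B -1.26.

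A pair of ACRO1 loci without a gene, at chr21:9829744-9829988 and chr21:9830330-9831446, held 96.8% to 99.4% of ACRO1 reads in HepG2, 81.9% to 87.9% in SNU475 and 40.1% to 55.5% in SNU398. They lie 2166 and 2752 bp from an SSU-rRNA copy at chr21:9827005-9827578. In SNU398 the pair gave 16.7 and 17.4 RPM with the combination, 14.2 and 13.7 RPM with decitabine, 13.1 and 12.3 RPM with GSK-126, and 12.7 and 13 RPM with DPBS. The 59 other ACRO1 loci gave 25 and 25.2 RPM with the combination, 20.7 and 20.1 RPM with decitabine, 10.8 and 9.66 RPM with GSK-126, and 19.6 and 18.5 RPM with DPBS. The GSK-126 libraries were thus low at the other loci and overlapped DPBS at the pair. In HepG2 and SNU475 the ACRO1 values are mainly those of the pair. The SSU-rRNA copy beside it varied between libraries of a group, at 4.16 and 37.1 RPM in HepG2 DPBS, where the pair gave 10.4 and 9.96 RPM. In SNU475 DPBS it gave 323 and 2150 RPM, where the pair gave 9.97 and 10.5 RPM. For the combination, decitabine and GSK-126, the stretch of 8 repeats with this copy gave 3.58, 1.51 and 1.3 times DPBS in HepG2. The pair gave 1.62, 2.08 and 1.66 times. In SNU398 the stretch gave 1.03, 1.47 and 1.35 times and the pair 1.33, 1.09 and 0.992. In SNU475 the stretch gave 0.746, 0.629 and 0.673 times and the pair 0.369, 0.427 and 0.637. There the stretch gave 1190 and 2910 RPM with DPBS, the first below every treated library. A link to the pair was not tested.

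ACRO1 loci elsewhere were seen singly in SNU398. The locus at chr1:143279252-143280661 gave 3.3 and 3.2 RPM with the combination, 2.21 and 2.39 RPM with decitabine, 1.03 and 0.818 RPM with GSK-126, and 2.17 and 2.12 RPM with DPBS, and limma gave -1.07 for GSK-126 (adjusted p = 6.55e-05). The locus at chr4:49516173-49517874 gave 5.84 and 6.09 RPM with the combination, 4.6 and 5.19 RPM with decitabine, 2.33 and 2.13 RPM with GSK-126, and 4.09 and 4.78 RPM with DPBS, with -0.93 for GSK-126 (adjusted p = 0.000285). Of 17 ACRO1 loci tested, GSK-126 lowered 9 in SNU398 and raised 0, where 4.8% of all loci were called lower and 3.42% higher. REP522, a satellite outside the chosen names, stood at 20 and 19.9 RPM with GSK-126 in SNU398, against 44.6 and 45.1 RPM with DPBS. TAR1, also outside them, was higher with GSK-126 there, at 6.02 and 5.67 RPM against 3.91 and 3.75 RPM. Of the 4 such satellites tested, GSK-126 in SNU398 raised 1 and lowered 2 (12.9% and 22.9% of all 843 subfamilies).

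SST1 was far lower in HepG2 than in the other lines. With DPBS, SNU398 exceeded HepG2 by 3.80 and SNU475 exceeded HepG2 by 3.76 on the log2 scale (limma adjusted p = 1.3e-30 and 1.11e-30), while the difference of SNU475 from SNU398, -0.04, did not pass (adjusted p = 0.654). HepG2 gave 3.81 and 3.31 RPM with the combination, 2.19 and 2.47 RPM with decitabine, 1.84 and 2.25 RPM with GSK-126, and 1.28 and 1.19 RPM with DPBS. The groups did not overlap with DPBS, and the changes were 1.22 ± 0.08 (combination, adjusted p = 4.48e-16), 0.71 (decitabine, adjusted p = 2.2e-10) and 0.55 (GSK-126, adjusted p = 7.67e-08), with an interaction of -0.03 (adjusted p = 0.783). The locus with the most SST1 reads in HepG2, inside the pseudogene RP11-216M21.1 at chr9:42251223-42252481, held 38.3% of them, and without the highest locus of each subfamily the combination gave 1.21. At loci outside gene bodies, 20.6% of its HepG2 reads, the changes were 0.89 (combination, limma adjusted p = 3.14e-09), 0.41 (decitabine, adjusted p = 0.00166) and 0.39 (GSK-126, adjusted p = 0.00423).

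In SNU475 SST1 gave 14.1 and 14.8 RPM with the combination, 15.8 and 16 RPM with decitabine, 18.4 and 18.3 RPM with GSK-126, and 22.4 and 23.6 RPM with DPBS. Every treatment lowered it, by 0.65, 0.52 and 0.31 (largest limma adjusted p = 0.000701). SNU398 gave 30.1 and 28.7 RPM with the combination, 27.4 and 28.8 RPM with decitabine, 24.7 and 23.7 RPM with GSK-126, and 23.6 and 23.7 RPM with DPBS. The combination raised it by 0.31 (adjusted p = 0.000939) and decitabine by 0.24 (adjusted p = 0.0273), a call lost when any of 4 single libraries was left out, and GSK-126 gave 0.03 (adjusted p = 0.757). At loci outside gene bodies the combination gave 0.64 (adjusted p = 1.32e-05) and decitabine 0.46 (adjusted p = 0.00372).

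The SST1 arrays of SNU398 did not move together. The array of 7 loci at chr17:21901382-21912459, which overlaps pseudogenes and a lincRNA, gave 5.77 and 6.62 RPM with the combination, 7.08 and 7.6 RPM with decitabine, 6.08 and 5.46 RPM with GSK-126, and 9.08 and 9.11 RPM with DPBS, the highest. The 17 loci at chr4:132645041-132686349, with no gene, gave 3.19 and 2.52 RPM with the combination, 2.01 and 1.76 RPM with decitabine, 0.91 and 0.999 RPM with GSK-126, and 1.27 and 0.511 RPM with DPBS. There the combination was highest and decitabine next, at 3.21 and 2.11 times DPBS.

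GSATII, a gamma satellite, gave 4.85 and 4.77 RPM in HepG2 with the combination, 3.86 and 3.74 RPM with decitabine, 3.44 and 3.43 RPM with GSK-126, and 2.26 and 2.13 RPM with DPBS. The groups stood apart in that order, and limma gave 0.98 (combination, adjusted p = 3.03e-10), 0.67 (decitabine, adjusted p = 3.53e-07) and 0.55 (GSK-126, adjusted p = 1.71e-05). In SNU398 it gave 8.74 and 8.47 RPM with the combination, 7.63 and 8.27 RPM with decitabine, 10.3 and 8.54 RPM with GSK-126, and 6.33 and 6.36 RPM with DPBS, all treatments being called higher (decitabine at 0.30, adjusted p = 0.0425, and not when some single libraries were left out). In SNU475 it gave 1.97 and 2.16 RPM with the combination, 1.87 and 2.54 RPM with decitabine, 2.57 and 2.33 RPM with GSK-126, and 3.06 and 2.76 RPM with DPBS. There the combination (-0.41) and decitabine (-0.34) were called lower, the decitabine call being lost without decitabine library A or DPBS library A, and GSK-126 gave -0.21 (adjusted p = 0.0799).

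GSATX, the other gamma satellite tested, was called higher with the combination in HepG2. It gave 0.709 and 0.695 RPM there with the combination, 0.183 and 0.36 RPM with decitabine, 0.0798 and 0.183 RPM with GSK-126, and 0.0207 and 0.272 RPM with DPBS, and the combination change was 0.92 (limma adjusted p = 2.42e-06). In SNU398, where it passed the filter, it gave 1.87 and 1.89 RPM with the combination, 1.34 and 1.63 RPM with decitabine, 1.03 and 1.03 RPM with GSK-126, and 1.75 and 1.82 RPM with DPBS. GSK-126 was lowest there (-0.58, adjusted p = 0.00297), a call lost with a pseudocount of 0.1 RPM, and 86.1% of its reads came from 1 locus at chr13:19517333-19519292.

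SATR1 separated the treatments differently in each line. HepG2 gave 2.24 and 2.26 RPM with the combination, 3.33 and 4.18 RPM with decitabine, 2.15 and 2.35 RPM with GSK-126, and 1.29 and 1.32 RPM with DPBS, so decitabine alone was highest (limma change 1.23, adjusted p = 1.5e-11). SNU398 gave 4.51 and 4.22 RPM with the combination, 2.22 and 2.36 RPM with decitabine, 2.09 and 2.21 RPM with GSK-126, and 2.08 and 2.11 RPM with DPBS. Only the combination was called there (0.91, adjusted p = 1.28e-07), and the interaction was 0.77 (adjusted p = 0.000304). SNU475 gave 1.19 and 0.819 RPM with the combination, 1.11 and 1.1 RPM with decitabine, 2.19 and 2.62 RPM with GSK-126, and 1.83 and 1.79 RPM with DPBS. GSK-126 there was the 1 call of a higher satellite in that line (0.33, adjusted p = 0.0179), and it was lost without GSK-126 library B, without either DPBS library or without the highest locus.

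SATR2 was, with ALR/Alpha, one of the members that the combination lowered in HepG2. It gave 0.921 and 0.786 RPM with the combination, 2.33 and 2.08 RPM with decitabine, 1.62 and 1.08 RPM with GSK-126, and 1.78 and 1.99 RPM with DPBS. The combination lowered it (-0.82, limma adjusted p = 1.58e-06), decitabine gave 0.18 (adjusted p = 0.188), and GSK-126 lowered it (-0.38, adjusted p = 0.0104), a call lost without GSK-126 library B or DPBS library B. In SNU398 it gave 1.11 and 1.17 RPM with the combination and 0.668 and 0.603 RPM with DPBS (0.53, adjusted p = 0.00112), and in SNU475 0.507 and 0.482 RPM with the combination and 1.15 and 1.15 RPM with DPBS (-0.73, adjusted p = 1.05e-05). A SATR2 locus at chr12:52503744-52508376 gave 0.0324 and 0.0278 RPM with the combination, 0.25 and 0.38 RPM with decitabine, 0.204 and 0.116 RPM with GSK-126, and 0.774 and 1.19 RPM with DPBS, the largest fall of any member locus in HepG2 (-2.34, limma adjusted p = 1.37e-11). The array from chr12:52493134, which includes this locus, averaged 1.21 RPM with DPBS in HepG2. With the combination it averaged 0.0607 RPM, with decitabine 0.484 RPM and with GSK-126 0.242 RPM. SATR2 as a whole averaged 1.88 RPM with DPBS, 0.853 RPM with the combination and 1.35 RPM with GSK-126. In RPM the array fell by more than the whole subfamily with both treatments, so the other SATR2 loci together did not fall in HepG2. BSR/Beta, the beta satellite, stood at 3.81 and 3.29 RPM with the combination in SNU398, 3.06 and 2.98 RPM with decitabine, 2.95 and 3.25 RPM with GSK-126, and 2.02 and 2.55 RPM with DPBS. It rose there with the combination (0.54, limma adjusted p = 0.000739) and GSK-126 (0.38, adjusted p = 0.0216), the GSK-126 call being lost without GSK-126 library B or DPBS library A. In SNU475 it gave 1.05 and 1.11 RPM with the combination, 1.34 and 1.31 RPM with decitabine, 1.03 and 0.712 RPM with GSK-126, and 1.64 and 1.72 RPM with DPBS, and it fell with the combination (-0.47) and GSK-126 (-0.68). Its HepG2 calls with single drugs were lost outside gene bodies, where its reads in ZNF91 were set aside.

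HSATI was close to absent outside SNU398, at or below 0.203 RPM, and gave 2.56 and 2.45 RPM in SNU398 with the combination, 2.17 and 2.06 RPM with decitabine, 2.37 and 2.06 RPM with GSK-126, and 2.04 and 2.11 RPM with DPBS. It was not called there. In HepG2 it was called higher with the combination (0.38) and decitabine (0.32) at 0.114 to 0.203 RPM, a few reads, and both calls were lost when single libraries were left out. HSAT5 rose in HepG2 with decitabine (0.63, limma adjusted p = 0.000117) and GSK-126 (0.44, adjusted p = 0.0061), the GSK-126 call being lost without GSK-126 library B or DPBS library A. HSAT5 in SNU398 gave 1.15 and 1.43 RPM with the combination, 0.669 and 0.556 RPM with decitabine, 1.03 and 1.01 RPM with GSK-126, and 0.729 and 0.885 RPM with DPBS. The change with the combination was 0.45, in a group through which HSAT5 passed the filter.

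Locus by locus, 152 member loci of 61166 repeat loci had at least 0.2 RPM in 2 libraries, 91 of them outside gene bodies. In SNU398 the combination raised 45 and lowered 6, where 5.04% of all loci were called higher and 1.44% lower, and 38 of the 45 lay outside genes. Of these 45, 31 passed the filter without the combination libraries, and the other 14 had to be high there to be tested. Only 21 of the 45 passed without any treated library of SNU398. That total of 51 was 31 without combination library A or DPBS library B. Decitabine in SNU398 raised 17 and lowered 1 (1.43% and 0.595% of all), in total 18, or 11 without decitabine library A and 10 without DPBS library B. Without the decitabine libraries 15 of the 17 passed the filter, and without any treated library of SNU398 only 7 did. GSK-126 in SNU398 raised 17 and lowered 16 (3.42% and 4.8% of all), in total 33, or 19 without GSK-126 library B, 17 without DPBS library A and 21 without DPBS library B. Of the 17 raised, 16 passed the filter without the GSK-126 libraries and 9 without any treated library of SNU398.

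By subfamily, 21 of 42 alpha loci were called higher and 4 lower with the combination in SNU398 (5.04% and 1.44% of all loci). Decitabine gave 12 and 1 (1.43% and 0.595%), and GSK-126 gave 9 and 0 (3.42% and 4.8%). How many of these alpha loci passed the filter only through treated SNU398 libraries was not counted. In HepG2 the combination raised 17 member loci and lowered 3 (14.6% and 8.42% of all loci), decitabine raised 11 and lowered 1 (32.9% and 2.84%), and GSK-126 raised 9 and lowered 1 (18.6% and 3.24%). Without any treated library of HepG2, 15 of the 17, 7 of the 11 and 6 of the 9 raised loci passed the filter. The decitabine total of 12 was 7 without DPBS library A. In SNU475 the combination raised 0 and lowered 28 (3.46% and 12.3%), decitabine raised 0 and lowered 20 (2.87% and 9.58%), and GSK-126 raised 1 and lowered 14 (1.98% and 6.17%). Of the 28, 25 passed the filter without the DPBS libraries, as did 18 of the 20 and 13 of the 14. The decitabine total of 20 was 12 and 11 without decitabine library A and B and 13 without DPBS library B, and the GSK-126 total of 15 was 6 without GSK-126 library B and 8 without DPBS library B.

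**Figure D5:**
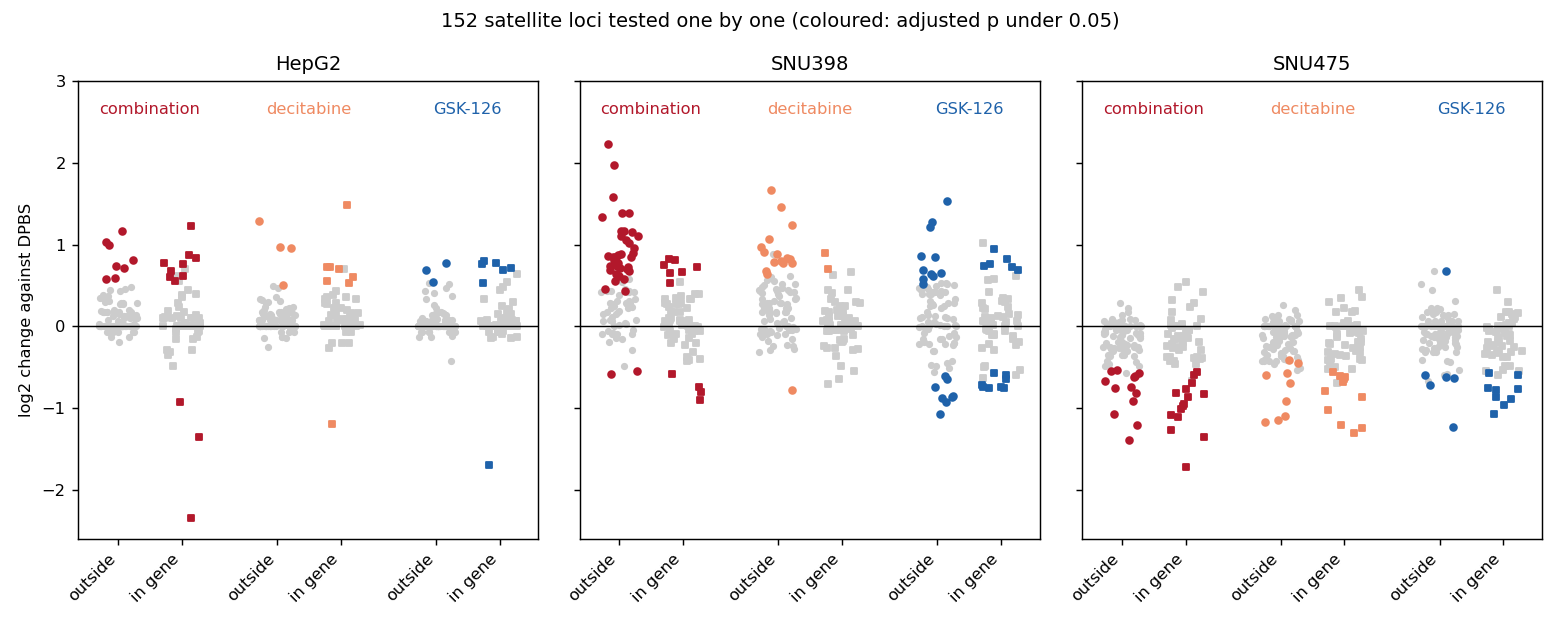
Log2 change against DPBS (y axis, log2(RPM + 0.2) scale) of the 152 tested satellite loci, split by overlap with a gene body; coloured points had adjusted p under 0.05. In SNU398 with the combination 38 loci outside genes are called higher, and in SNU475 with the combination all 28 called loci lie below 0.

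Some of the largest falls of SNU475 lay inside genes. The alpha locus at chr17:21788766-21791768, inside the lincRNA gene RP11-1109M24.16, gave at most 0.024 RPM in the other lines. In SNU475 it gave 0.459 and 0.147 RPM with the combination, 0.414 and 0.559 RPM with decitabine, 0.604 and 0.622 RPM with GSK-126, and 1.38 and 1.38 RPM with DPBS. No treated library reached DPBS, and limma gave -1.72 for the combination (adjusted p = 1.11e-06). The SST1 locus at chr20:25838602-25840001, inside FAM182B, gave 0.049 and 0.105 RPM with the combination, 0.0196 and 0.077 RPM with decitabine, 0.106 and 0.0532 RPM with GSK-126, and 0.416 and 0.354 RPM with DPBS in SNU475, at most a few reads in each treated library. It passed the filter through SNU475 DPBS and the SNU398 combination only. In HepG2 a SATR1 locus that passed the filter only through the combination and decitabine groups lay inside SSUH2, at chr3:8711935-8714694, and gave 0.306 and 0.378 RPM with the combination, 0.411 and 0.472 RPM with decitabine, 0.0193 and 0.0221 RPM with GSK-126, and 0.0386 and 0.0221 RPM with DPBS.

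Genes that act on satellite chromatin or centromeres were read from a list of 46 tested genes, which mixes silencing factors and centromere proteins with the H3K9 demethylases KDM4A to KDM4D and with HSF1, an activator of satellite transcription under heat stress, on the log2(scaled RPKM + 0.5) scale. In HepG2 the combination raised 15 and lowered 29 (40.6% and 25.9% of 19377 genes), decitabine raised 12 and lowered 24 (35.9% and 18.3%), and GSK-126 raised 11 and lowered 28 (31% and 21.7%). In SNU398 the combination raised 9 and lowered 25 (28.9% and 18.4%), decitabine raised 9 and lowered 19 (23.4% and 15.4%), and GSK-126 raised 10 and lowered 30 (30% and 22.4%). In SNU475 the combination raised 23 and lowered 17 (25.3% and 29.6%), decitabine raised 22 and lowered 16 (24.2% and 27.3%), and GSK-126 raised 19 and lowered 18 (21.5% and 28.5%). The list's median change with the combination was -0.43 in HepG2, -0.15 in SNU398 and 0.09 in SNU475.

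HELLS, a remodeler needed for DNA methylation of satellites, fell in HepG2 by 1.68 with the combination (limma adjusted p = 3.15e-12), 0.54 with decitabine and 1.44 with GSK-126, and in SNU398 by 0.19, 0.17 and 0.37. CDCA7, its partner, fell by 0.95, 0.78 and 0.99 in HepG2 and was higher in SNU475 by 0.56, 0.32 and 0.35. UHRF1, which brings DNMT1 to hemimethylated DNA, gave -0.74, -0.61 and -1.71 in HepG2, -0.22, -0.08 (adjusted p = 0.0578) and -0.86 in SNU398, and 0.84, 0.74 and 0.66 in SNU475. In HepG2 each of these fell with every treatment, while in SNU475 UHRF1 and CDCA7 rose and HELLS fell (by 0.45, 0.19 and 0.17).

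DNMT1 itself gave -0.24, -0.14 and -0.77 in HepG2 and 0.28, 0.22 and 0.27 in SNU475, for the combination, decitabine and GSK-126. DNMT3B, a de novo methyltransferase mutated in the ICF syndrome of unstable pericentromeres, rose in HepG2 with the combination (0.69) and decitabine (0.81) and fell with GSK-126 (-0.53), and in SNU398 fell by 1.04 with GSK-126 (adjusted p = 3.64e-11). SUV39H1, the H3K9 methyltransferase of pericentromeres, fell in HepG2 by 0.51, 0.46 and 0.62 and rose in SNU475 by 0.66, 0.60 and 0.72. CENPA, the centromeric histone, gave -0.63, -0.21 and -0.84 in HepG2, -0.29, -0.33 and -1.04 in SNU398, and 0.55, 0.39 and 0.47 in SNU475. EZH2, the target of GSK-126, fell in HepG2 by 0.71, 0.47 and 0.88 and in SNU398 rose by 0.32 with GSK-126 alone.

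Other list genes past a log2 change of 1 included CBX1, an HP1 protein, which fell by 1.11 in SNU398 with GSK-126 (adjusted p = 1.47e-12), and KDM4A, an H3K9 demethylase, which rose there by 1.18 (adjusted p = 6.05e-13). ATRX, which deposits H3.3 at pericentromeric heterochromatin, fell in SNU475 by 1.07 with the combination (adjusted p = 4.46e-11). No relation between these genes and the satellites was tested.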

How the data were processed

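Total RNA depleted of rRNA was sequenced as single 75-base reads from a stranded kit, per the labels' protocols. HISAT2, featureCounts and hg19 are named in the submitters' processing notes, without versions; no source used here gives the strand setting or the handling of multi-mapped reads. The authors deposited RPKM per repeat locus and per gene. RPKM times length in kb gave RPM, which was summed per subfamily; with the total reads recovered from the steps of the deposited RPKM, 100% of values checked were whole within 0.15 reads. Simple, low-complexity and RNA repeats were left out of fits. limma 3.58.1 (R 4.3.3; trend and robust options, 1 mean per group, 12 residual degrees of freedom, two-sided) was fitted to log2(RPM + 0.5) of subfamilies, log2(RPM + 0.2) of loci and log2(RPKM + 0.5) of genes (at least 0.5 RPKM in 2 libraries), genes being scaled by median-of-ratios factors of 0.847 to 1.158. The fits were also run on simulated counts with a fixed spread between libraries and changes in the HepG2 combination only. Spread between the real libraries differed by group, so no conclusion is drawn from that run. All subfamilies are accounted for; named loci were the 10 with the highest means and, per comparison, the 3 highest and 2 lowest called changes without overlap, and arrays, the chromosome 21 pair and the LINC00662 split were chosen after their values were seen. Named genes were DNMT1, DNMT3B, UHRF1, HELLS, CDCA7, SUV39H1, CENPA, EZH2 and those past a log2 change of 1. The planned list also held ZBTB24, whose values are not given, and not every line is given for each gene. The members and lists were chosen with earlier results of these data known. Alternatives covered pseudocounts, filters, scaling, gene bodies, the highest locus, one line alone, limma-voom, a replicate block and each library left out. Depth is recovered, not stated, and intervals for single values were not computed.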

Additional observations from a re-analysis of the deposited data

Results flagged for a closer look

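Of 66 differences between lines in the effect of decitabine or of the combination on the 11 satellite subfamilies, 48 passed limma's test of the difference itself at an adjusted p of 0.05, and 21 of these were between effects called in opposite directions. The 48 are 72.7% of the 66, beside 74.2% over all 843 subfamilies in the same comparisons, so the share is not read as a result about the satellites. SNU475 was harvested on day 21 and the other lines on day 14, so line and harvest day cannot be told apart.

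For decitabine, the effect in SNU475 minus that in HepG2 was -2.12 for ACRO1 (adjusted p = 8e-21), -1.75 for SATR1, -1.22 for SST1, -1.19 for ALR/Alpha and -1.02 for GSATII on the log2 scale. The effect in SNU475 minus that in SNU398 was -1.12 for ALR/Alpha, -0.76 for SST1 and -0.65 for GSATII (adjusted p = 0.000311).

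For the combination, the effect in SNU475 minus that in HepG2 was -1.98 for ACRO1 (adjusted p = 2.94e-19), -1.87 for SST1, -1.39 for GSATII and -1.23 for SATR1. The effect in SNU475 minus that in SNU398 was -1.67 for ACRO1, -1.53 for SATR1, -1.29 for ALR/Alpha, -1.26 for SATR2, -1.01 for BSR/Beta, -0.96 for SST1 and -0.82 for GSATII. Between the lines harvested on the same day, the effect in SNU398 minus that in HepG2 was 1.35 for SATR2 (adjusted p = 1.49e-07) and 1.0 for ALR/Alpha (adjusted p = 6.06e-06). The HepG2 fall of SATR2 lay in a single array on chromosome 12, whose mean was 1.21 RPM with DPBS and 0.0607 RPM with the combination. Its other loci together did not fall there. At loci outside gene bodies the ALR/Alpha difference was 1.06 (adjusted p = 1.14e-08), between effects of the same sign.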

How the results depend on the processing

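Of 17578 values recomputed under alternatives, 16951 were labelled unchanged. For a change this means the same direction and side of the threshold, and for a count only that it moved by no more than a set factor. Of the 16951, 13469 came from leaving out 1 library, which was often not part of the comparison. Reversed were ACRO1 in DPBS of SNU475 minus HepG2 (0.00, median-of-ratios scaling), and, with loci outside gene bodies, ALR/Alpha in HepG2 for the combination minus DPBS (0.42) and minus GSK-126 (0.01), BSR/Beta in HepG2 for the combination minus decitabine (0.27), minus GSK-126 (0.15) and the interaction (0.05), and the decitabine effect on SST1 in SNU398 minus HepG2 (0.05). limma-voom reversed the SNU398 minus HepG2 difference of HSATII for decitabine (-1.34) and the combination (-0.52), where HepG2 DPBS had no HSATII reads, and BRCA1 with GSK-126 in SNU398 was -0.01 without scaling. Other causes were not tested.

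Counts of called subfamilies moved as follows. Decitabine in SNU398 called 4, and 2 with a pseudocount of 0.1 RPM or without the highest loci; the SNU398 interaction called 5, and 3 with that pseudocount. The combination minus decitabine in SNU475 called 1, and 0 with a pseudocount of 1 RPM, outside gene bodies, without the highest loci or by limma-voom. The SNU475 interaction called 4, and 2 without a filter, outside gene bodies, without the highest loci, with one line alone or by limma-voom. DPBS of SNU475 minus HepG2 called 7, and 4 with scaling. Outside gene bodies GSK-126 in HepG2 called 5 and not 8, the combination minus GSK-126 in HepG2 3 and not 7, the HepG2 interaction 4 and not 7, and the decitabine difference of SNU475 from HepG2 6 and not 10. Counts of loci with a pseudocount of 0.05 RPM were 10 for decitabine, 15 for GSK-126 and 31 for the combination in SNU398 and 9 for GSK-126 in SNU475. At 0.5 RPM the combination called 24 in SNU398 and 18 in SNU475, and at 0.1 RPM decitabine called 24 in HepG2.

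With one library left out, loci ranged from 10 to 20 (decitabine), 17 to 34 (GSK-126) and 31 to 51 (combination) in SNU398, 11 to 21 (decitabine) and 6 to 18 (GSK-126) in SNU475, and 7 to 13 (decitabine) in HepG2. Subfamilies ranged from 1 to 5 (decitabine) and 3 to 5 (interaction) in SNU398, and from 0 to 1 (combination minus decitabine) and 1 to 4 (interaction) in SNU475. Letters A and B did not pair the libraries, with correlations of their deviations from -0.18 to 0.19. With a replicate block 575 of 579 values were labelled unchanged by the same rule, and decitabine in SNU398 then called 3 subfamilies. Depth limits HSATII, GSATX and HSATI outside SNU398, where a library holds few reads.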
